A study of Mus musculus with 21 samples.

Results

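Interferon-stimulated genes were followed as a set of 35 named genes in dendritic cells (DCs) sorted from mice with a reporter for Aire, the autoimmune regulator. The members were taken by symbol from a list of genes known to be induced by type I interferon, and all 35 were found among the 55471 genes of the count table. All 35 also passed the filter on low counts in each model fitted. RNA was sequenced from 21 libraries in 7 groups of 3. All mice carried the AGF-KI reporter knock-in on a C57BL/6 background and are labelled as male and 6 weeks old. The genotype AGF-KI/+ (KI/+ below) has the reporter over a normal allele, and the genotype AGF-KI/- is called AireKO in the sample titles and below. From lymph node, CD45+ cells with CD11c and MHCII were sorted into reporter-positive (AGF+) and reporter-negative (AGF-) cells in each genotype, which gave 4 groups. Bone marrow gave AGF+ cells of each genotype from a B220-CD24+ gate with no or low CD11b, and KI/+ total DCs from a B220-CD11c+MHCII+ gate. The bone marrow sorts therefore differ in their gates as well as in the reporter, and no AireKO total DCs were analysed here.

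Type I interferons signal through the receptor chains Ifnar1 and Ifnar2 and the kinases Jak1 and Tyk2. The signal assembles a complex with Stat2 and Irf9 that binds interferon-stimulated response elements (ISREs) in promoters. The induced proteins recognise or degrade viral RNA, block viral entry and budding, and tune the response itself. Plasmacytoid DCs are known as strong producers of type I interferon, and many DCs keep a basal level of these genes without infection.

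Depth was 4164451 to 6055097 counts per library, so that 1 CPM (counts scaled by depth, with TMM effective library sizes) rested on 3.93 to 6.58 counts. The labels call the replicates independent biological samples, and replicate pairs had a chi-square per degree of freedom of 4.46 to 20.3, above the sampling noise of counts. Aire checked the genotype labels. It stood at 131, 98.6 and 111 CPM in KI/+ lymph node AGF+ libraries and at 22.7, 26.5 and 26.2 in AireKO ones. Its bone marrow AGF+ levels were 115, 108 and 79.4 CPM in KI/+ and 11.5, 12.4 and 19.6 in AireKO libraries, so that Aire RNA was lower but still present in AireKO cells. The 7 libraries numbered 2, 1 in each group, had 2022 to 3994 CPM of Xist and at most 0.766 CPM over 4 Y-linked genes, whereas the other 14 had at most 31.1 and 329 to 567 CPM. This goes against the label of male mice for those 7 libraries, so counts are also given without them. The 8 genes listed for DC identity were Flt3, Zbtb46, Itgax, H2-Ab1, H2-Eb1, Cd74, Ptprc and Cd24a. They were present in each group and summed to 5659 to 11420 CPM per library. Lymph node AGF+ libraries (7050 to 7979) were below AGF- ones (10072 to 11420). Several of these genes encode antigens of the sort gates (CD45, CD11c, MHCII and CD24), so their presence is not a test of identity.

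RefSeq promoter windows, from 250 bases before to 50 bases after the start in GRCm38.p6, matched 26 of the 35 members. No window was matched for Usp18, Oas2, Mx1, Mx2, Parp9, Parp14, Ly6e, Ifi27l2a and Rtp4. The ISRE letters, GAAA then any 2 bases then GAAA, searched on both strands, were found in 13 of the 26 members (50%) and in 1079 of all 27025 gene windows (3.99%). The gamma-activated site, TTCNNNGAA, which reads the same on both strands, was found in 6 of 26 members (23.1%) and 9.55% of all gene windows. Printed here are 80-base stretches, 5′ to 3′ along the gene, of the 7 members that hold an ISRE and were lower in AireKO lymph node AGF+ cells, and of Isg15, which was higher in bone marrow AGF+ cells. Capitals mark the ISRE letters, as such or as their reverse complement, and overlapping matches run together.
Stat2: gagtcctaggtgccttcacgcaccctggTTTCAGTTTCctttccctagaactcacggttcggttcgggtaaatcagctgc
Isg15: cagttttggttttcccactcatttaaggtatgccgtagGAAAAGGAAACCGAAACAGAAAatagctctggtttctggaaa
Ifit1: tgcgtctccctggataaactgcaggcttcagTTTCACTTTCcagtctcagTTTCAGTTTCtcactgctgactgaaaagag
Oas1a: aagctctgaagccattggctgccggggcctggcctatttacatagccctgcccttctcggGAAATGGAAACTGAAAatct
Oas3: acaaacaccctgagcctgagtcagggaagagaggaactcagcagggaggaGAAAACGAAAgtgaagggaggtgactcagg
Rsad2: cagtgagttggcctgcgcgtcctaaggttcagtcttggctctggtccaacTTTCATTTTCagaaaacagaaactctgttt
Trim30a: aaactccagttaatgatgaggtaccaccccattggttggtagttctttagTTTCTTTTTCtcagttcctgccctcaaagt
Bst2: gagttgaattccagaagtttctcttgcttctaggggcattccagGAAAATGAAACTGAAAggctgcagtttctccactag
The stretches lie at chr10:128270248-128270327 (plus strand) for Stat2, chr4:156200855-156200934 (minus strand) for Isg15, chr19:34640754-34640833 (plus strand) for Ifit1, chr5:120907526-120907605 (minus strand) for Oas1a and chr5:120777705-120777784 (minus strand) for Oas3. Those of Rsad2, Trim30a and Bst2 lie at chr12:26456543-26456622 (minus strand), chr7:104465200-104465279 (minus strand) and chr8:71537567-71537646 (minus strand). Isg15 holds 3 matches that overlap in a row, while Ifit1, Oas1a and Bst2 hold 2 each. The Oas1a matches end 5 bases before the start, and the Stat2 match begins 222 bases before it. Irf7, Irf9, Herc6, Ifit2, Oasl1, Oasl2, Isg20, Cmpk2, Dtx3l, Ifi35, Ifi44, Xaf1 and Samd9l had no match of these letters in the window. A match is a description of the letters and not a measured binding site.

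In KI/+ lymph node, 11 of the 35 interferon-stimulated genes had lower levels in AGF+ cells than in AGF- cells and 0 had higher ones (edgeR quasi-likelihood test, Benjamini-Hochberg adjusted p under 0.05). Over all 15884 genes tested, 11% were called lower and 10.1% higher. In AireKO lymph node 19 members were lower and 0 higher, beside 13.3% of all genes lower and 11.4% higher. The median log2 fold change of the members was -0.56 in KI/+ and -0.70 in AireKO, whereas that of all genes was 0.01 in both. The 11 genes called in KI/+ were all among the 19 called in AireKO (100% of the first list and 57.9% of the second). These comparisons share no library, but they come from the same fit and share its estimate of spread for each gene. The overlap is therefore not independent, and that of all genes called lower is not given here. In these bulk libraries, fewer cells of a type and less RNA per cell cannot be told apart.

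**Figure D1:**
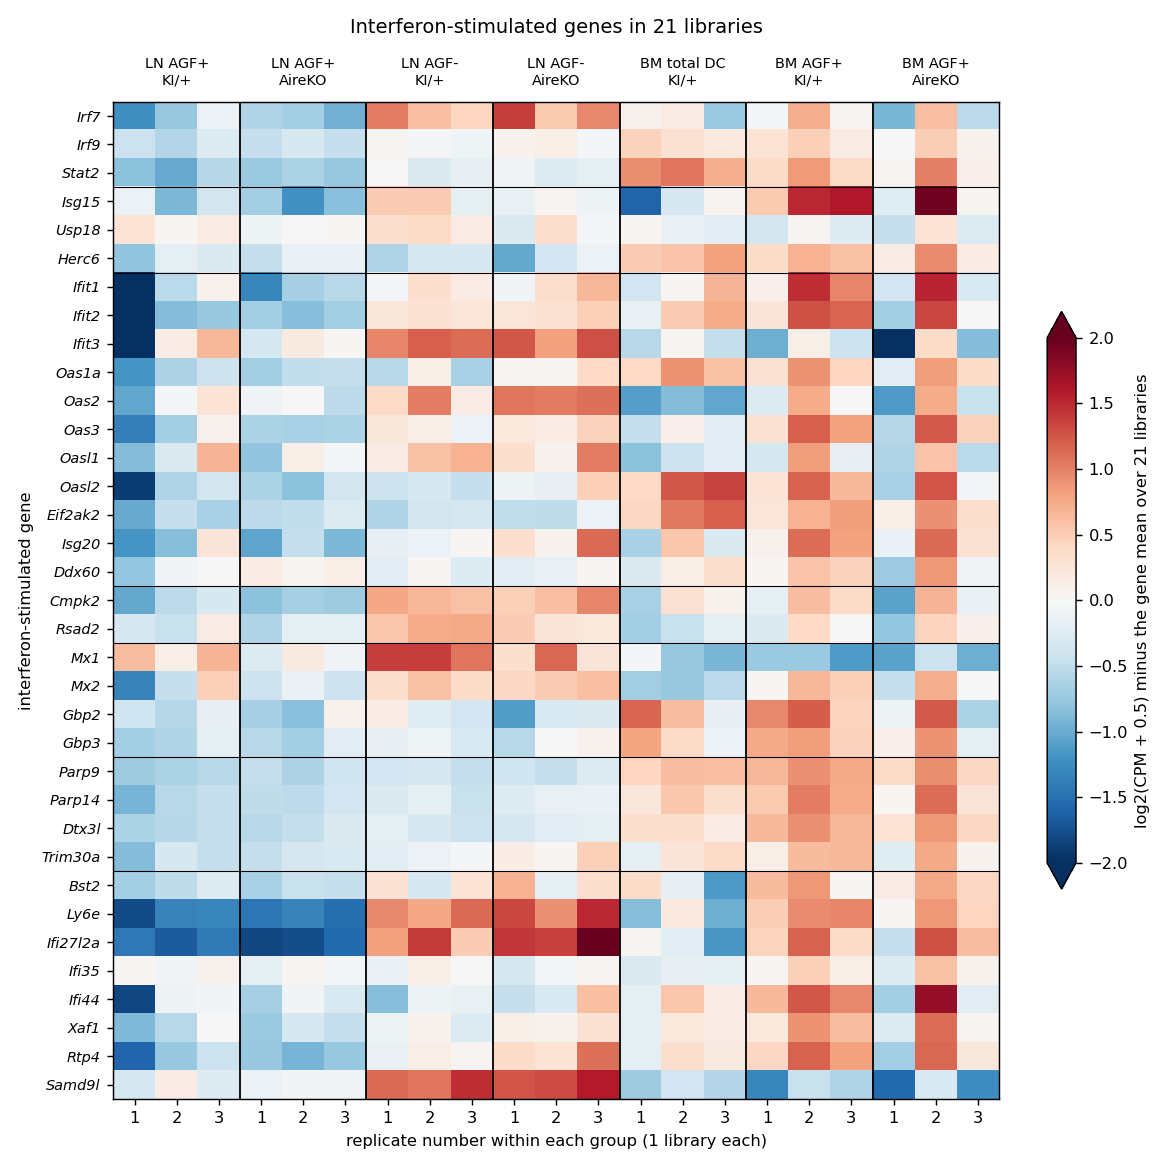
Rows are the 35 interferon-stimulated genes in order of role and columns the 21 libraries by group. Colour gives log2(CPM + 0.5) minus the gene's mean over the libraries, from blue (lower) to red (higher), and the AGF+ lymph node columns are blue for most genes while bone marrow AGF+ AireKO library 2 is redder than its neighbours.

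Among the regulators, Irf7, the transcription factor that amplifies type I interferon production, was lower in AGF+ cells of both genotypes. Irf7 stood at 31.5, 43.9 and 68.5 CPM in the 3 KI/+ AGF+ libraries and at 152, 114 and 101 in the AGF- ones. In AireKO libraries it stood at 49.1, 46.6 and 38.1 CPM in AGF+ and 196, 108 and 145 in AGF- cells. The AGF+ and AGF- libraries did not overlap in either genotype, and the log2 fold changes (± standard error, here and below) were -1.35 ± 0.27, adjusted p = 0.00274 in KI/+ and -1.75 ± 0.27, adjusted p = 0.000356 in AireKO. Stat2, the activator subunit of the ISRE-binding complex, had smaller differences. Its KI/+ levels were 122, 108 and 147 CPM in AGF+ against 219, 178 and 194 in AGF- cells, and its AireKO levels were 131, 140.3 and 129 against 208, 181 and 191. All 3 AGF+ libraries of each genotype were below all 3 AGF- libraries, with log2 fold changes of -0.65 ± 0.13, adjusted p = 0.00242 and -0.54 ± 0.13, adjusted p = 0.00616. Irf9, the DNA-binding subunit of that complex, was also called lower in both genotypes, with log2 fold changes of -0.40 and -0.48. All 3 regulators were thus called in both genotypes, although Irf9 in KI/+ lost its call in 5 of 15 other settings, among them no filter, without the libraries numbered 2 and without AGF+ library 1 or 2 or AGF- library 1 (largest adjusted p = 0.173). In AireKO, Irf9 lost its call by edgeR without the libraries numbered 2 (adjusted p = 0.051). Stat2 lost its AireKO call by edgeR with all 21 libraries in the fit (adjusted p = 0.0506). Irf7 lost its call in 0 settings in either genotype.

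The widest differences were in small membrane proteins. Ly6e, a lipid-anchored surface protein that blocks entry of several coronaviruses (chr15:74955051-74959905, GRCm38), stood at 57.7, 79.6 and 81.4 CPM in KI/+ AGF+ and 394, 344 and 440.3 in KI/+ AGF- libraries. In AireKO libraries Ly6e stood at 73.7, 79.7 and 70.5 and 507, 379.9 and 576 CPM. The lowest AGF- library was more than 4 times the highest AGF+ library, and the log2 fold changes were -2.43 ± 0.17, adjusted p = 1.13e-06 and -2.71 ± 0.17, adjusted p = 3.94e-07. Ifi27l2a, a small hydrophobic protein (chr12:103442167-103443680), was low in AGF+ cells at 6.46, 5.47 and 6.54 CPM in KI/+ and 4.85, 5.02 and 5.94 in AireKO. Its AGF- libraries stood at 32.8, 49.4 and 26.2 and 50.02, 48.4 and 76.5 CPM. The log2 fold changes were -2.56 ± 0.26, adjusted p = 1.49e-05 and -3.47 ± 0.26, adjusted p = 1.13e-06, the second being the widest of any member in either genotype.

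Samd9l, a cytoplasmic factor that restricts poxviruses and cell growth, stood at 33.4, 47.6 and 35.6 CPM in KI/+ AGF+ and 94.5, 90.2 and 119.6 in AGF- cells. Its AireKO values were 39.3, 41.1 and 41.2 and 103, 106 and 129 CPM. The sorts were far apart in both genotypes, with log2 fold changes of -1.38 ± 0.16, adjusted p = 3.87e-05 and -1.48 ± 0.16, adjusted p = 1.65e-05. Rtp4, a Golgi chaperone for receptors, stood at 11.04, 20.1 and 25.3 against 30.8, 37.5 and 35.5 CPM in KI/+ and at 20.1, 17.7 and 20.1 against 44.8, 41.5 and 74.01 in AireKO cells. Its log2 fold changes were -0.90 ± 0.27, adjusted p = 0.0285 and -1.47 ± 0.26, adjusted p = 0.00108. The Rtp4 call was lost in 6 of 15 other settings in KI/+ and in 0 in AireKO. Of its 100-base words, 9.28% are shared with the predicted gene Gm45338, so reads there could be split. The other membrane and effector genes were Bst2, the tetherin that holds budding virions at the cell surface, and Xaf1, Ifi35 and Ifi44. Bst2 (-0.86) and Xaf1 (-0.68) were called in AireKO alone, and Ifi35 and Ifi44 in neither genotype. Xaf1 lost its call in 5 of 15 other settings and Bst2 in 0.

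Both nucleotide enzymes were lower in both genotypes. Cmpk2, a mitochondrial nucleoside monophosphate kinase, stood at 6.62, 9.57 and 11.1 CPM in KI/+ AGF+ and 24.2, 22.4 and 21.3 in AGF- libraries. AireKO values were 7.69, 8.63 and 8.40 and 19.8, 21.4 and 27.97 CPM. The groups were about equally far apart in each genotype, with log2 fold changes of -1.32 ± 0.20, adjusted p = 0.000446 and -1.48 ± 0.21, adjusted p = 0.00015. Rsad2, or viperin, which makes a chain-terminating nucleotide, had log2 fold changes of -0.90 ± 0.19, adjusted p = 0.0038 and -0.67 ± 0.19, adjusted p = 0.0193. Rsad2 lost its call in 1 of 15 other settings in KI/+ and in 4 in AireKO.

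Of the 11 RNA binders and RNA enzymes, 1 was called lower in KI/+ and 6 in AireKO. Ifit2, which binds viral RNA, was called in both genotypes (-1.49 and -1.11), and the call was lost in 0 of 15 other settings in KI/+ and in 3 in AireKO. Ifit1, Isg20, Oas1a, Oas2 and Oas3 were called in AireKO alone, with log2 fold changes of -1.20, -1.45, -0.73, -1.26 and -0.92. Of these, Ifit1 lost its call in 8 of 15 other settings (limma voom among them), Oas3 in 6, Oas1a in 5 and Isg20 in 2, while Oas2 lost it in 0. Each single AireKO AGF+ library, when left out, ended the calls of Ifit1, Oas1a and Oas3. The OAS enzymes make the short oligoadenylates that activate RNase L. Oas1a shares 40.87% of its 100-base words with Oas1g, and Ifit3 shares 31.65% with Ifit3b, so both values are uncertain. Ifit3 differed by a like amount in both genotypes (-1.22 and -1.21) with adjusted p = 0.0676 and 0.0609. Eif2ak2, the RNA-activated kinase PKR, Ddx60, Oasl1 and Oasl2 were called in neither genotype.

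The other groups had fewer calls. Of the 4 GTPases, Mx1 was called lower in both genotypes (-0.80 and -0.69), while Mx2, Gbp2 and Gbp3 were called in neither. Mx1 lost its call in 3 of 15 other settings in KI/+ and in 5 in AireKO. Of the ADP-ribosylation and ubiquitin genes, the ligase Trim30a was called in AireKO (-0.60 ± 0.14, adjusted p = 0.00667), and Parp9, its partner Dtx3l and Parp14 in neither genotype. None of the 3 genes of the ISG15 system was called: the ubiquitin-like modifier Isg15 differed by -0.87 and -1.02, and Usp18, which removes it, and Herc6, its ligase, by at most 0.23 in size. The 16 members called in neither genotype ranged from -1.22 to 0.23. Mx1 is known to be defective as a protein in many laboratory strains, C57BL/6 included, and its RNA is what was counted.

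**Figure D2:**
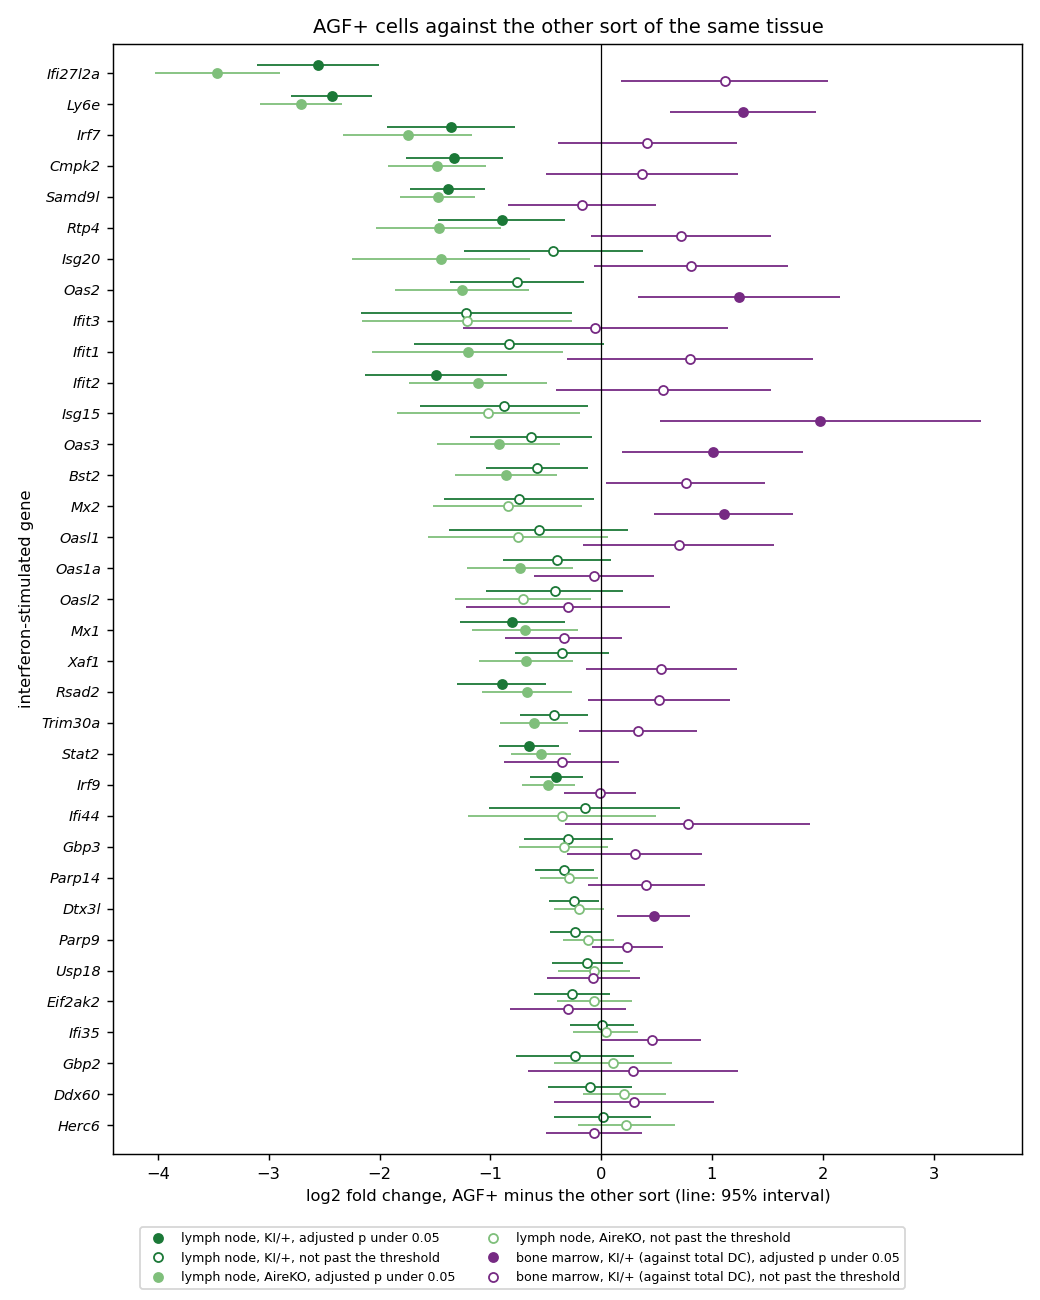
Points are log2 fold changes of AGF+ cells against the other sort of the same tissue, with 95% intervals, for each of the 35 genes. Filled points passed adjusted p under 0.05, all of them below 0 in lymph node (11 in KI/+ and 19 in AireKO) and all above 0 in bone marrow (6).

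Some of these counts depend on single libraries. In KI/+ lymph node AGF+ cells, library 1 was the lowest for 26 of 35 members and library 3 the highest for 29, beside 36.0% and 27.3% of all genes. Without library 3 of that group 18 members were called lower in KI/+ in place of 11. Without library 1 of the AireKO AGF+ group 12 were called in AireKO in place of 19. With the replicate number as a block in the fit, 18 were called lower in KI/+. Without the libraries numbered 2, the counts were 9 in KI/+ and 11 in AireKO, all lower. The AGF+ and AGF- libraries did not overlap, with AGF+ lower, for 16 members in KI/+ (19.1% of all genes) and 24 in AireKO (19.2%), and Ddx60 alone was higher without overlap, in AireKO (20.4% of all genes).

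Some members that were called only in AireKO, or not at all, are given here by library, chosen after their values were seen. Ifit1 stood at 3.63, 12.01 and 18.8 CPM in KI/+ AGF+ and 17.5, 22.6 and 19.9 in KI/+ AGF- cells, and at 6.85, 11.04 and 11.9 and 16.98, 22.8 and 28.4 in AireKO cells. Isg15 stood at 2.68, 1.37 and 2.18 against 4.44, 4.44 and 2.54 CPM in KI/+ and at 1.67, 1.00 and 1.43 against 2.61, 3.11 and 2.72 in AireKO cells. In KI/+ cells 1 AGF+ library lay within the AGF- range in each gene, library 3 for Ifit1 and library 1 for Isg15, whereas in AireKO cells the sorts did not overlap. Bst2 stood at 42.4, 47.7 and 56.7 against 82.8, 54.3 and 82.2 CPM in KI/+ and 42.96, 49.6 and 49.4 against 110.5, 59.8 and 86.2 in AireKO cells. Usp18, the ISG15 protease that also restrains the receptor, stood at 79.6, 67.6 and 73.3 against 81.9, 85.2 and 73.1 CPM in KI/+ and 60.8, 65.6 and 66.8 against 53.2, 83.8 and 64.3 in AireKO cells. Gbp2, a GTPase that attacks the vacuoles of intracellular pathogens, stood at 108, 96.7 and 128 against 159.6, 122 and 110.3 CPM in KI/+ and 90.1, 80.1 and 152 against 65.9, 116 and 117 in AireKO cells. The sorts overlapped for Usp18 and Gbp2 in both genotypes.

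Called members were found with and without an ISRE. Of the members with a matched promoter, 7 of 13 with the ISRE and 7 of 13 without it were lower in AireKO AGF+ cells. In KI/+ these counts were 2 of 13 and 5 of 13.

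Genotype was compared within each sort to ask whether loss of Aire moved these genes. No member was called in lymph node AGF+ cells, where 0.0126% of all genes were called, nor in AGF- cells, where 0.00630% were. None was called in bone marrow AGF+ cells either, beside 0.0129% of all genes. At an unadjusted p under 0.05 the edgeR test gave 1, 5 and 0 members in these comparisons (2.86%, 14.3% and 0%), beside 3.67%, 5.97% and 1.67% of all genes. At an adjusted p under 0.05 the DESeq2 Wald test and limma voom called 0 in each. The median log2 fold changes of the members, AireKO minus KI/+, were -0.0043 in lymph node AGF+, 0.07 in AGF- and -0.22 in bone marrow AGF+ cells, beside -0.01, 0.03 and -0.0048 for all genes. In lymph node AGF- cells 5 of 35 members were higher without overlap in AireKO and 1 was lower, beside 4.50% and 4.46% of all genes.

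The members closest to a call were given in full by rule. Mx1 stood at 274, 194 and 287 CPM in KI/+ and 149, 203 and 170.1 in AireKO lymph node AGF+ cells. In AGF- cells Mx1 stood at 470.5, 467 and 377 and 224, 399 and 215 CPM. KI/+ libraries were mostly higher, but 1 AireKO library of each sort lay above the lowest KI/+ one, and the log2 fold changes were -0.55 ± 0.22, adjusted p = 0.967 and -0.66 ± 0.22, adjusted p = 0.798. Mx1 was called lower in AireKO in both sorts with no filter on low counts, and in AGF- cells without AireKO library 2, where the log2 fold change was -1.02. Ifi27l2a was higher in the AireKO AGF- libraries on average (0.67 ± 0.22, adjusted p = 0.798), with overlapping groups. Ddx60, a helicase, stood at 33.7, 55.2 and 57.6 CPM in KI/+ and 64.5, 60.02 and 62.5 in AireKO lymph node AGF+ cells, which did not overlap, as in 5.32% of all genes (0.34 ± 0.18, adjusted p = 0.967). In the other direction Usp18 alone did not overlap in these cells, at 67.6 to 79.6 CPM in KI/+ and 60.8 to 66.8 in AireKO. The share of all genes in that direction is not given here.

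The difference between the genotypes in the sort effect was itself tested, and no member was called (0.00630% of all genes). At an adjusted p under 0.05 the DESeq2 Wald test and limma voom called 0 as well. The edgeR test gave 1 member at an unadjusted p under 0.05, beside 1.64% of all genes. The 1 member was Ifi27l2a, whose sort effect was -2.56 in KI/+ and -3.47 in AireKO, a difference of -0.91 ± 0.37, adjusted p = 1. Isg20, an exonuclease, had the next smallest p, with levels of 4.26, 5.47 and 12.4 CPM in KI/+ AGF+, 4.68, 7.23 and 5.33 in AireKO AGF+, 9.10, 9.48 and 10.6 in KI/+ AGF- and 13.1, 10.9 and 23.1 in AireKO AGF- cells. The larger count in AireKO (19 against 11) is therefore not shown to be a larger effect.

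In bone marrow the members that were called were higher in AGF+ cells, the opposite direction to lymph node, but they were mostly other genes. Of them, Ly6e was called lower in both lymph node genotypes and Oas2 and Oas3 in AireKO alone. Isg15, Mx2 and Dtx3l were called in neither. In the fit without a replicate block the share of members called was no greater than that of all genes. Of the 35 members, 6 were higher in KI/+ AGF+ cells than in KI/+ total DCs and 0 were lower, beside 22.8% of all 15503 genes higher and 21.6% lower. The median log2 fold change was 0.42 for the members and 0.02 for all genes. The groups did not overlap, with AGF+ higher, for 11 members, beside 26.0% of all genes.

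Ly6e was again among the called genes. It stood at 284, 388 and 395 CPM in AGF+ cells and 112, 229.6 and 102 in total DCs, so the AGF+ libraries were all higher (1.28 ± 0.30, adjusted p = 0.0051). Mx2, a GTPase close to Mx1, stood at 19.4, 30.4 and 26.6 CPM against 11.5, 11.1 and 13.1 (1.11 ± 0.28, adjusted p = 0.00856). Isg15, the ubiquitin-like modifier, had the widest fold change of the called genes, 4.49, 9.38 and 9.99 CPM against 0.640, 2.255 and 3.09 (1.98 ± 0.66, adjusted p = 0.0304). The total DC values of Isg15 rest on few counts, and the interval of its fold change was wide, from 0.53 to 3.43.

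The oligoadenylate synthetases Oas2 and Oas3 were also called. Oas2 stood at 35.7, 73.3 and 42.98 CPM in AGF+ cells and 20.05, 23.6 and 20.8 in total DCs (1.25 ± 0.41, adjusted p = 0.0298). Oas3 stood at 77.5, 145 and 110.4 and 45.2, 67.2 and 54.4 CPM (1.01 ± 0.37, adjusted p = 0.0457). In both genes AGF+ library 2 was well above the other AGF+ libraries. Dtx3l, a ubiquitin ligase that works with Parp9, had the smallest called difference at 433, 518 and 437 against 351, 349 and 306 CPM (0.48 ± 0.15, adjusted p = 0.0236). Ifi27l2a, at 25.3, 42.3 and 24.1 against 19.2, 15.6 and 7.91 CPM, did not overlap but was not called (1.12 ± 0.43, adjusted p = 0.0519). Irf7, Irf9 and Stat2 were not called, with log2 fold changes of 0.42, -0.01 and -0.36.

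Library 2 of the KI/+ bone marrow AGF+ group was the highest of its 3 for 30 of 35 members (30.7% of all genes), by a median of 1.39-fold over the mean of the other two. Without it 2 members were called, Ly6e and Mx2, and without total DC library 3 there were 3, Isg15, Ly6e and Mx2. Without the libraries numbered 2, 4 were called higher. With the replicate block 13 were called higher and 1 lower, and the share of all genes called in that fit is not given here. Ly6e and Mx2 were called in each of these fits.

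**Figure D3:**
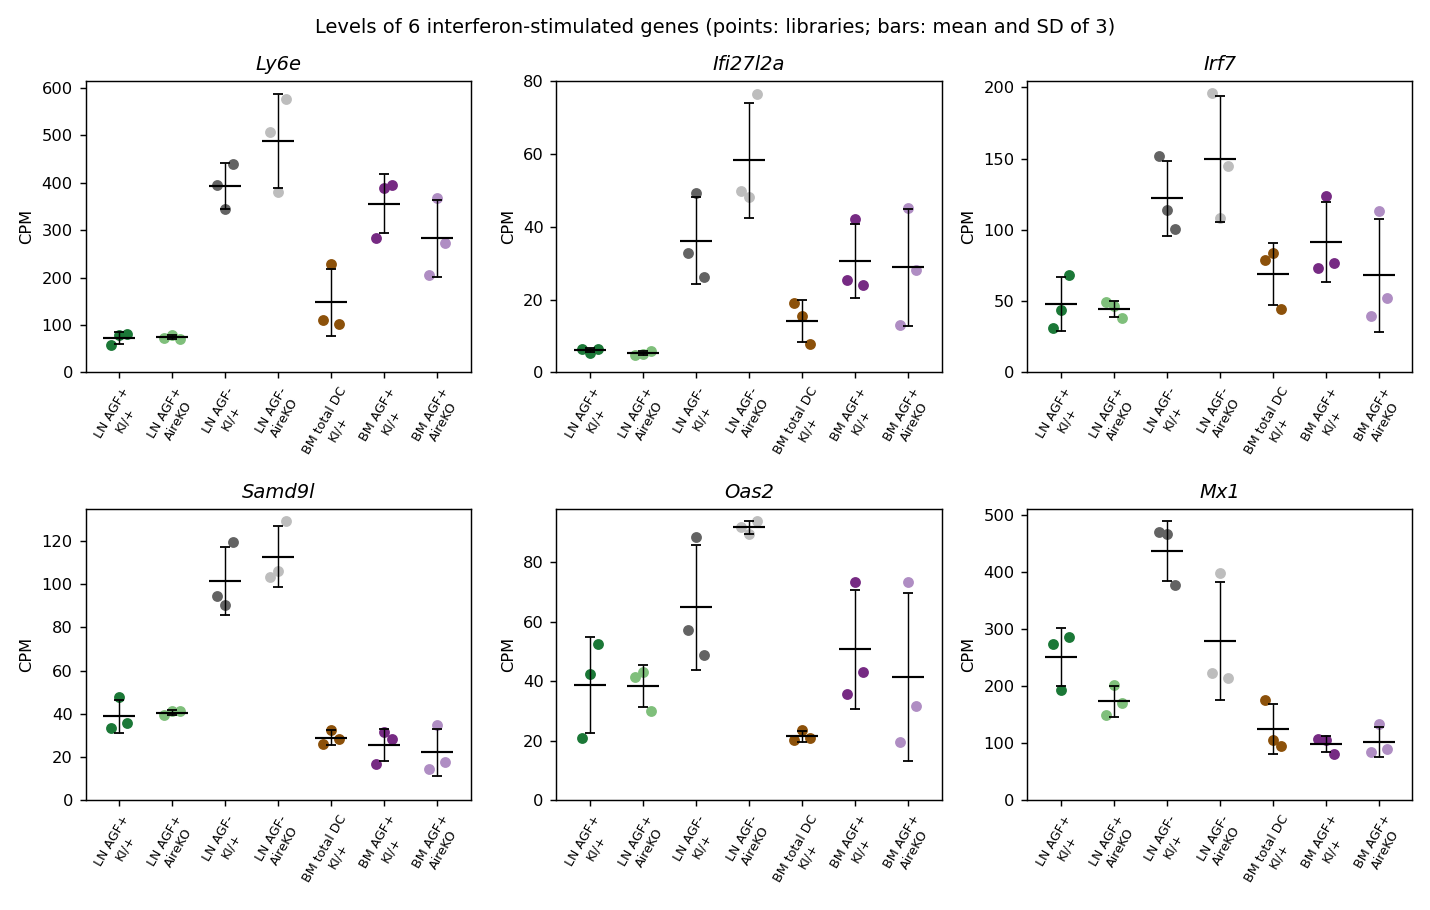
Each panel gives the CPM of 1 gene in the 7 groups, with a point per library and a bar for the mean and SD of 3 libraries, on axes that start at 0. Ly6e, Ifi27l2a and Irf7 are lowest in lymph node AGF+ cells, Oas2 is lowest in bone marrow total DCs, and Samd9l and Mx1 are lower in bone marrow AGF+ than in lymph node AGF+ cells.

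In bone marrow AGF+ AireKO cells 1 library stood above the others for the whole set. Library 2 was the highest of its group for 35 of 35 members, where 31.9% of all genes were highest in it. Its levels were 1.38 to 4.66 times the mean of the other two libraries over the members, with a median of 2.10. Isg15 stood at 2.44, 12.8 and 3.06 CPM in this group and Ifit1 at 13.5, 51.7 and 14.3. Oas2 stood at 19.5, 73.3 and 31.6, Ly6e at 206, 369 and 273 and Ifi27l2a at 13.1, 45.3 and 28.3 CPM. The summed level of the 35 members ran from 2865 to 5869 CPM in these 3 libraries, and from 4018 to 5557 in the KI/+ ones. Dtx3l and Parp9 had the smallest p for genotype there. Dtx3l stood at 335, 504 and 369 CPM in AireKO (-0.20 ± 0.15, adjusted p = 1), and Parp9 at 166, 244 and 170.4 in AireKO against 203, 241 and 217 in KI/+ (-0.18 ± 0.15, adjusted p = 1). KI/+ and AireKO bone marrow AGF+ libraries overlapped for all 35 members, where 3.19% of all genes were higher and 3.50% lower without overlap.

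**Figure D4:**
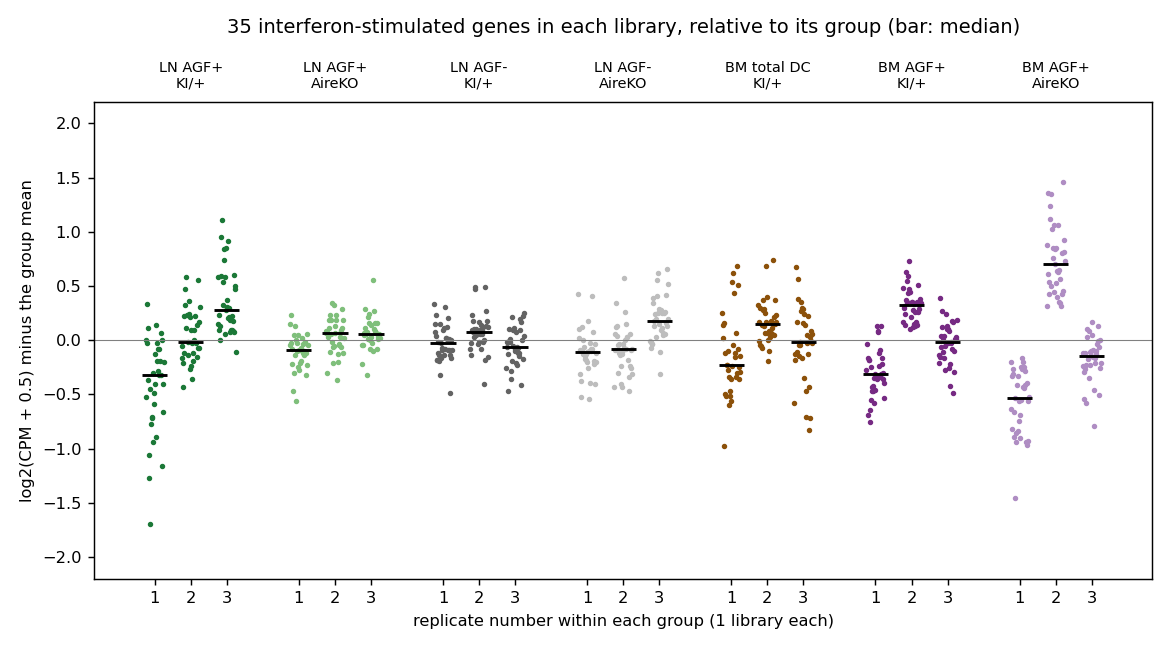
Points are the 35 interferon-stimulated genes in each library, as log2(CPM + 0.5) minus the mean of the group's 3 libraries, and bars are medians. In bone marrow AGF+ AireKO library 2 all 35 genes lie above 0, while in lymph node AGF+ KI/+ cells library 1 holds the lowest value of 26 genes and library 3 the highest of 29.

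AGF+ cells were also compared between the tissues, lymph node minus bone marrow, with the same libraries that entered the sort comparisons. In KI/+ mice 25 members were lower in lymph node AGF+ cells and 2 higher, where 27.1% of all 17265 genes tested were lower and 27.2% higher. In AireKO mice 21 were lower and 2 higher, beside 25.7% of all genes in each direction. The 21 were all among the 25 (84% of the KI/+ list and 100% of the AireKO list), and Mx1 and Samd9l were the pair called higher in both genotypes. The median log2 fold change was -1.17 in KI/+ and -0.93 in AireKO, against 0.04 over all genes in both. Markers of other cell types differed as well. Plasmacytoid DC markers were lower in lymph node AGF+ cells for 8 of 12 genes and higher for 1 in KI/+, and lower for 7 and higher for 1 in AireKO, with sums of 840.5 to 919.7 and 795 to 869.9 CPM against 1742 to 1970 and 1738 to 1928 in bone marrow. B cell markers were lower for 6 of 10 and higher for 3 in KI/+, and lower for 6 and higher for 2 in AireKO. Monocyte and macrophage markers were higher for 7 and 5 of 12 and lower for 0, and T and NK cell markers higher for 2 and lower for 1 of 12 in both. The part of these cells in the tissue difference was not tested.

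Parp9 and Dtx3l had the smallest p. Parp9, a mono-ADP-ribosyltransferase family member, stood at 77.7, 82.5 and 87.03 CPM in lymph node and 203, 241 and 217 in bone marrow AGF+ cells of KI/+ mice, and at 92.1, 83.3 and 97.3 in AireKO lymph node AGF+ cells. The tissues were well apart, with log2 fold changes of -1.42 ± 0.13, adjusted p = 1.99e-08 in KI/+ and -1.09 ± 0.13, adjusted p = 7.18e-07 in AireKO. Its partner Dtx3l stood at 177, 185 and 201 CPM in KI/+ and 187, 198 and 226 in AireKO lymph node AGF+ cells, against the bone marrow values above (-1.30 ± 0.13, adjusted p = 9.04e-08 and -0.98 ± 0.13, adjusted p = 3.74e-06). The genes overlap at their starts on opposite strands and share 5.57% of Parp9's 100-base words, so their reads are not fully separate. Parp14, another ADP-ribosyltransferase, stood at 226, 293 and 311 CPM in lymph node and 617, 868 and 714 in bone marrow AGF+ cells of KI/+ mice. AireKO values of Parp14 were 302, 299 and 327 and 440.4, 932 and 513 CPM. No lymph node library reached the lowest bone marrow one (-1.41 ± 0.20, adjusted p = 7.1e-06 and -1.02 ± 0.20, adjusted p = 0.000251).

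Stat2 and Eif2ak2 were lower in lymph node as well. Stat2 stood at 281, 394 and 283 CPM in KI/+ and 227, 437 and 233 in AireKO bone marrow AGF+ cells (-1.35 ± 0.20, adjusted p = 9.74e-06 and -1.17 ± 0.20, adjusted p = 5.52e-05). Eif2ak2 stood at 42.9, 62.6 and 54.97 CPM in lymph node and 103, 141 and 156 in bone marrow AGF+ cells of KI/+ mice (-1.32 ± 0.22, adjusted p = 3.34e-05). Ly6e differed by -2.29 ± 0.26, adjusted p = 4.48e-07 in KI/+ and -1.92 ± 0.26, adjusted p = 4.2e-06 in AireKO, and Ifi27l2a by -2.31 and -2.45 ± 0.41, adjusted p = 4.33e-05. Ifi27l2a and Ly6e had the widest differences between the tissues among the members in KI/+ AGF+ cells.

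The exceptions were Mx1 and Samd9l. Mx1 stood at 107, 106 and 81.5 CPM in KI/+ and 84.9, 133 and 90.4 in AireKO bone marrow AGF+ cells, below the lymph node values given above (1.36 ± 0.25, adjusted p = 0.000123 and 0.76 ± 0.25, adjusted p = 0.0153). Samd9l stood at 16.9, 31.4 and 28.2 and 14.3, 34.6 and 17.8 CPM (0.61 ± 0.25, adjusted p = 0.0444 and 0.87 ± 0.25, adjusted p = 0.00731). In AireKO the count rests on 1 bone marrow library. Without AireKO bone marrow AGF+ library 2, 10 members were lower and 3 higher, and without the libraries numbered 2, 8 were lower and 2 higher. In KI/+ mice 19 were lower and 2 higher (Mx1 and Usp18) without the libraries numbered 2. Samd9l was not among them: its KI/+ call was lost there and in 5 more of 14 other settings, limma voom among them and leaving out lymph node AGF+ library 2 or 3 or bone marrow AGF+ library 1 or 3 (largest adjusted p = 0.233). No member was called for a genotype effect that differed between the tissues, where 0% of all genes were called. By edgeR 0 members had an unadjusted p under 0.05, beside 2.64% of all genes. DESeq2 and voom called 0 at an adjusted p under 0.05. The smallest p were those of Parp9 (0.33 ± 0.18, adjusted p = 1) and Mx1 (-0.60 ± 0.35, adjusted p = 1).

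**Figure D5:**
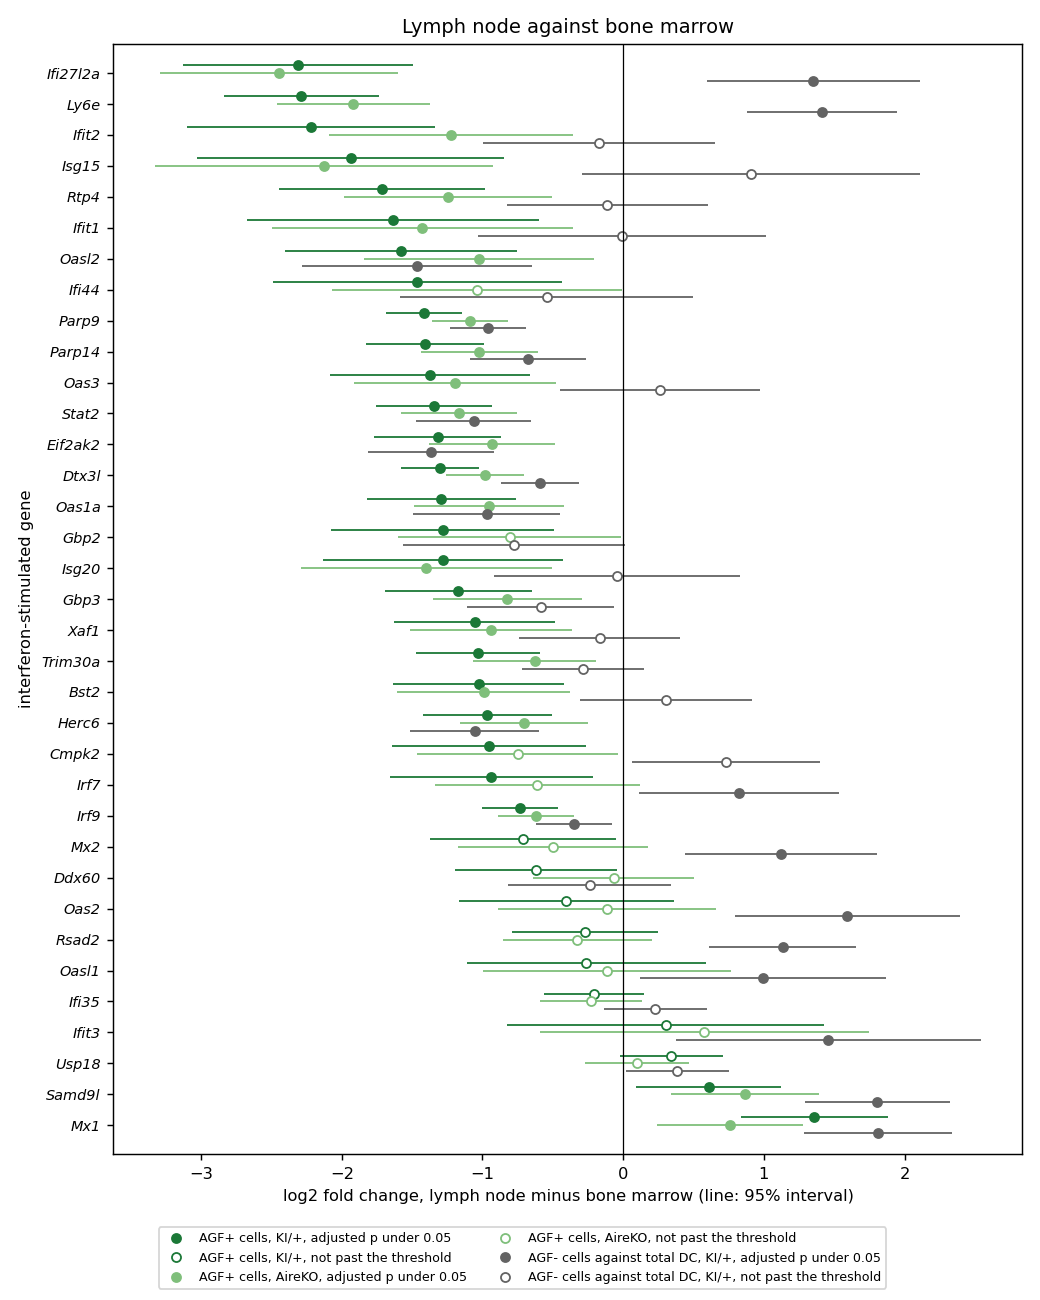
Points are log2 fold changes, lymph node minus bone marrow, with 95% intervals, for AGF+ cells of both genotypes (green) and for AGF- cells against total DCs in KI/+ mice (grey). The AGF+ points lie below 0 for 31 of 35 genes in each genotype, whereas the grey points fall on both sides, with 10 genes called higher and 9 lower.

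Lymph node AGF- cells and bone marrow total DCs, the other sorts of each tissue, were compared in the same way. In KI/+ mice 10 members were higher in lymph node and 9 lower, beside 28.8% of all genes higher and 27.3% lower, so the members' counts were at the share of all genes. The median log2 fold change was -0.04 against 0.05 over all genes. Samd9l was higher in lymph node, at 94.5, 90.2 and 119.6 CPM against 26.02, 32.6 and 28.4 (1.81 ± 0.25, adjusted p = 3.63e-06). Mx1 was higher too, at 470.5, 467 and 377 against 176, 105 and 94.6 CPM (1.81 ± 0.25, adjusted p = 4.56e-06), as was Ly6e (1.41 ± 0.25, adjusted p = 9.03e-05). The other genes called higher were Ifi27l2a, Ifit3, Irf7, Mx2, Oas2, Oasl1 and Rsad2.

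The 9 genes called lower in lymph node were led by Parp9, with 97.9, 100.3 and 91.9 CPM in AGF- cells and 173, 197 and 195 in total DCs (-0.96 ± 0.13, adjusted p = 3.09e-06). Eif2ak2 stood at 56.8, 66.99 and 68.2 against 116, 181 and 198 CPM (-1.37 ± 0.22, adjusted p = 2.05e-05), and Stat2 at 219, 178 and 194 against 415, 459.8 and 361 (-1.06 ± 0.20, adjusted p = 0.000114). These are an RNA sensor kinase and a transcription factor. Herc6 stood at 102, 121 and 124 against 221, 231 and 269.7 CPM (-1.06) and Oasl2 at 112, 120.5 and 109 against 199, 360.0 and 385 (-1.46). Oas1a stood at 29.7, 47.6 and 27.9 against 58.01, 82.8 and 66.02 CPM (-0.97). Parp14, at 351, 379 and 314 against 499, 625 and 545 CPM, Dtx3l, at 242, 220.3 and 205 against 351, 349 and 306, and Irf9, at 116, 108 and 105 against 154, 139 and 128, completed the list (-0.68, -0.59 and -0.35). The balance was unstable: with library size alone as the scaling 13 were higher and 7 lower, without total DC library 1 there were 7 and 8, and without total DC library 3 there were 7 and 11. Library size alone also moved the median of all genes from 0.05 to 0.29 log2 units in this comparison.

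Whether the sort effect differed between the tissues was tested as an interaction in KI/+ mice. The difference (AGF+ minus AGF- in lymph node, less AGF+ minus total DCs in bone marrow) was negative and called for 14 members and positive for 0, beside 11.2% and 9.75% of all genes. Plasmacytoid DC markers were also lower in this term for 10 of 12 genes, B cell markers for 9 of 10 and T and NK cell markers for 6 of 12, with 0 higher in each list, while monocyte and macrophage markers were higher for 4 and lower for 1 of 12. Their part in the members' values was not tested. Ly6e (-3.70 ± 0.37, adjusted p = 5.69e-07) and Ifi27l2a (-3.66 ± 0.53, adjusted p = 4.69e-05) led. Mx2 had -1.83 ± 0.46, adjusted p = 0.00624, with lymph node levels of 7.25, 13.7 and 26.6 CPM in AGF+ and 24.4, 28.7 and 24.7 in AGF- cells. Rsad2 had -1.41 ± 0.35, adjusted p = 0.00666, with 16.1, 14.9 and 22.9 CPM in AGF+ and 30.2, 34.5 and 34.9 in AGF- lymph node cells and 16.7, 27.2 and 20.7 in AGF+ and 12.6, 14.96 and 17.8 in total bone marrow cells. Oas2 (-2.0 ± 0.53, adjusted p = 0.00977) had lymph node levels of 20.8, 42.4 and 52.4 and 57.03, 88.4 and 48.8 CPM. In these 5 genes AGF+ cells were lower on average in lymph node and higher in bone marrow. The called members came from every role group, with 5 of the 8 membrane and other effectors and both nucleotide enzymes. Without the libraries numbered 2, 6 were called: Cmpk2, Ifi27l2a, Ifit2, Irf7, Ly6e and Samd9l.

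Seen over all 7 groups, the highest mean CPM lay in KI/+ bone marrow AGF+ cells for 17 members and in AireKO lymph node AGF- cells for 9. The lowest lay in lymph node AGF+ cells of KI/+ mice for 15 members and of AireKO mice for 9. The summed CPM of the 35 members was 1904 to 2604 in KI/+ and 2147 to 2418 in AireKO lymph node AGF+ libraries, below the 3346 to 4036 of the 6 AGF- libraries. Levels were also divided by exon length, with the exons of all annotated transcripts merged. This length can exceed that of the RNA present, and for Irf7 it covers the whole gene, so ranks between genes are rough. On this scale Mx1 was highest in KI/+ lymph node AGF+ cells at 66.5 CPM per kb and Bst2 in KI/+ bone marrow AGF+ cells at 110.4. Cmpk2 (2.19) and Ifit3 (4.09) were the lowest on it in those groups. Ifi35 and Usp18 were the flattest members, with group means that differed by at most 1.36-fold and 1.38-fold, and Usp18, Ddx60 and Ifi35 were called in no comparison.

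Most ligands of the pathway had few or no counts. Of 21 interferon genes listed, 13 had 0 counts in all libraries, which allows up to 3 counts in a library, and 6 had 1 to 10 counts in all. Ifng, the type II interferon made mostly by T and NK cells, had 0 counts in all 6 lymph node AGF+ libraries. It had 31 and 58 counts in the KI/+ and AireKO AGF- groups and was called lower in AGF+ cells of both genotypes. Ifng passed the filter on low counts through AGF- cells alone, so it could not be called higher there, and its counts were few. Ifnk, a type I interferon of keratinocytes, had 703 counts over all 21 libraries and reached 10.6 CPM. It stood at 4.08, 4.59 and 5.17 CPM in bone marrow AGF+ cells and 9.81, 9.84 and 9.65 in total DCs, and was lower in AGF+ cells (-1.06 ± 0.19, adjusted p = 0.00108).

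Receptors and kinases of the pathway were lower in lymph node AGF+ cells for 3 of 10 genes in KI/+ and 4 of 10 in AireKO, with 0 higher. Ifnar1, the type I receptor chain, had log2 fold changes of -0.48 ± 0.14, adjusted p = 0.0247 and -0.65 ± 0.14, adjusted p = 0.00354, and Ifngr1, the type II chain, of -0.65 and -0.80. The type III receptor chain Ifnlr1 (-1.26 and -1.95) was called in both as well. Of 10 interferon regulatory factor genes outside the set, 2 were lower in KI/+ and 3 in AireKO, led by Irf8 (-1.62 and -2.12), a factor of DC development. Of 19 nucleic acid sensor genes 8 were lower and 2 higher in KI/+, and 9 lower and 0 higher in AireKO. Tlr8 (-3.60 and -4.42), Tlr7 (-2.79 and -3.35) and their adaptor Myd88 (-1.19 and -1.34) led.

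Other interferon-induced genes outside the set were called mostly lower in lymph node, with 16 of 63 lower and 4 higher in KI/+ and 27 lower and 4 higher in AireKO. Slfn2 (-1.68 and -1.54) and Ly6a (-4.84 and -5.22) had the smallest adjusted p with Ifitm6 and Ms4a4c. Genes that lean to interferon gamma were split, with 3 higher and 4 lower of 23 in KI/+, near the shares of all genes. The peptide transporter genes Tap1 (0.60 ± 0.15, adjusted p = 0.00925) and Tap2 (0.65 ± 0.14, adjusted p = 0.00525) were higher in AGF+ cells, and Irgm1, a GTPase, was lower (-0.58). In bone marrow 13 of 24 of these genes were higher in AGF+ cells and 1 lower, while other interferon-induced genes were even, at 13 higher and 13 lower of 60, near the 22.8% and 21.6% of all genes. Receptors and kinases in bone marrow had 3 of 10 lower and 0 higher, sensors 8 of 18 lower and 2 higher, and of the sensors Tlr7 (3.70) and Dhx58 (2.10) were higher. Of 9 feedback inhibitors, 1 was lower in KI/+ lymph node AGF+ cells, the phosphatase gene Ptpn6 (-0.56), and 2 were lower and 1 higher in AireKO. In each of these lists 0 genes were called for genotype.

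Markers of other cell types moved with the lymph node result. Monocyte and macrophage markers were lower in AGF+ cells for 10 of 12 genes in KI/+ and 12 of 12 in AireKO, and their summed level was 394 to 513 and 264 to 515 CPM against 2052 to 2232 and 2022 to 2908 in AGF- cells. B cell markers were lower for 8 and 10 of 10, at 71.4 to 100 and 77.4 to 97.3 CPM against 346 to 763 and 501 to 1057. T and NK cell markers were lower for 12 of 12 in both, at 14.9 to 20.9 and 12.2 to 38.1 CPM against 88.0 to 438 and 132 to 788. In all 3 lists the summed level of each AGF+ library was below that of each AGF- library. Among the T and NK cell markers, Gzmb had 0 counts in AGF+ cells of both genotypes and Ncr1 in those of KI/+ mice. Gzmb therefore passed the filter on low counts through AGF- cells alone and could not be called higher. A marker almost absent from AGF+ cells, as Ncr1 in KI/+ mice, can pass this filter only through AGF- cells. The T and NK cell sums over 12 genes were low in AGF+ cells, so more of that list may be of this kind. Such counts lean to lower calls. Plasmacytoid DC markers were lower for 6 and 7 of 12 and higher for 1 in each, at 840.5 to 919.7 and 795 to 869.9 CPM against 765 to 1215 and 894 to 1759. These sums overlapped between the sorts in KI/+, whereas in AireKO each AGF+ library was below each AGF- library. Siglech, a defining plasmacytoid DC gene, differed by -3.73 and -4.06. Markers of cDC1 were lower for 5 of 8 in both genotypes and higher for 1 in AireKO, those of cDC2 lower for 4 and 5 of 8, and those of mature CCR7+ DCs higher for 0 and 2 of 8 and lower for 0. The DC identity genes were lower for 5 of 8 in KI/+, with 0 higher, and lower for 6 and higher for 2 in AireKO. The part of these cell types in the lower interferon-stimulated genes was not tested.

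In bone marrow, markers moved in both directions beside the 6 higher members. Plasmacytoid DC markers were higher in AGF+ cells for 10 of 12 genes and lower for 2, at 1742 to 1970 CPM against 659.6 to 755 in total DCs. B cell markers were higher for 7 of 8 tested and lower for 1 (256 to 298 against 28.6 to 39.2 CPM). In AGF+ cells Cd79a, a B cell receptor component, had a mean of 0.778 CPM. Of 12 T and NK cell markers 4 passed the filter on low counts, and all 4 were higher (81.2 to 119 against 13.3 to 29.1 CPM over the list). Ncr1 had 0 counts in both groups and Klrb1c in total DCs. A marker almost absent from total DCs can pass this filter only through AGF+ cells, so such counts lean to higher calls. Markers of cDC2 were lower for 6 of 7 tested, and cDC1 markers lower for 2 of 6 and higher for 1. Monocyte and macrophage markers were lower for 7 of 9 tested, at 44.6 to 150.1 against 598 to 965 CPM. No plasmacytoid DC, B cell or monocyte marker had 0 counts over a whole group. The part of these cells in the bone marrow values was not tested.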

How the data were processed

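RNA from sorted cells was made into libraries with a low-input kit and sequenced in pairs, per the labels' protocols. The submitters' processing notes name the mm10 build, STAR 2.7.3a and HTSeq 0.11.2, with fastp 0.20.0, Picard 2.21.1, SAMtools 1.9 and edgeR 3.38.1. Nothing in those sources gives the annotation release, the strand setting or the treatment of multi-mapping reads. The authors deposited raw counts per Ensembl gene for 21 libraries, and these counts were used as deposited. Of the 55471 genes, 327 had no symbol. 0 columns of other samples were present, and the deposited normalized table was not used.

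Counts were scaled by TMM, filtered by expression per group and tested with the quasi-likelihood F test of edgeR 4.0.16 (R 4.3.3), with Benjamini-Hochberg adjustment over all genes tested and a threshold of 0.05. Separate fits took the 12 lymph node libraries (15884 genes), the 9 bone marrow libraries (15503 genes) and all 21 for comparisons between tissues (17265 genes). Standard errors are the fold change divided by the square root of F, and intervals are at 95%. Other tests were DESeq2 1.42.0 and limma voom 3.58.1. The procedure was tested on simulated data. Other scalings, no filter, other sets of libraries in the fit and leaving out libraries were also tried.

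Same-numbered libraries were checked for pairing by the correlation of their deviations from the group means. In 5 of 6 comparisons within a tissue every correlation was above 0.1 (lowest over all 0.0904, for genotype in lymph node AGF+ cells; highest 0.430), and in 0 of 3 between tissues. The labels do not say what a shared number marks. The main fits had no term for it, and counts with the replicate number as a block are given above.

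The members, the other gene lists and the tests were chosen with earlier results of these data known. Values by library are given for the called members with the 6 smallest adjusted p of each comparison, for called members that went against the majority, and for the 2 smallest p where none was called. Of each other list, up to 4 called genes with the smallest adjusted p could be named. Gene positions and exon lengths came from an annotation of GRCm38, and shared 100-base words were counted between its transcripts. Promoter windows came from RefSeq (GRCm38.p6).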

Additional observations from a re-analysis of the deposited data

Results flagged for a closer look

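The effect of the sort in KI/+ mice differed between lymph node and bone marrow for 14 members, by the interaction term of the edgeR quasi-likelihood test, beside 11.2% of all genes called in that direction. The values are the lymph node log2 fold change (AGF+ minus AGF-) less the bone marrow one (AGF+ minus total DCs), and all 14 are negative. Among the membrane and other effectors, the difference was -3.70 for Ly6e, -3.66 for Ifi27l2a, -1.20 for Samd9l, -1.60 for Rtp4 and -1.33 for Bst2. The RNA-binding and RNA-modifying genes Ifit2, Oas2 and Oas3 had -2.05, -2.0 and -1.63. Irf7, the regulator, had -1.76, and Isg15, the modifier, had -2.84. The nucleotide enzymes Cmpk2 and Rsad2 had -1.68 and -1.41, the GTPase Mx2 had -1.83, and the ubiquitin ligase gene Dtx3l had -0.71. Without the libraries numbered 2 the calls of Isg15, Mx2, Oas2, Oas3, Rsad2, Rtp4, Bst2 and Dtx3l were lost. The bone marrow groups were also gated differently, so the reporter and the gate cannot be told apart in this difference.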

How the results depend on the processing

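Of 192 counts of called members under an alternative, 173 stayed within 1.5 times the count reported, with the same majority direction where any was called. The 173 include the comparisons that involve genotype, where the reported count was 0 and mostly stayed at 0, with no direction to keep. Another 17 counts moved further and 2 turned their majority. With no filter on low counts, 18 members were called in the KI/+ lymph node sort, 1 for genotype in each lymph node sort (Mx1), 18 in the bone marrow sort and 22 in the interaction of sort and tissue. With the replicate block, 18 were called in the KI/+ lymph node sort and 14 in the bone marrow sort, and the block moved no other count by over 1.5 times. With only the groups compared in the fit, 11 were called in the bone marrow sort. Without the libraries numbered 2, 11 were called in the AireKO lymph node sort, 10 between the tissues in AireKO AGF+ cells and 6 in the interaction. Leaving out 1 library at a time gave 9 to 18 in the KI/+ lymph node sort, 12 to 18 in the AireKO one, 2 to 6 in the bone marrow sort and 10 to 18 in the interaction. Between the tissues it gave 22 to 28 in KI/+ AGF+ cells, 13 to 26 in AireKO AGF+ cells and 15 to 19 for AGF- cells against total DCs. In the last of these the majority turned to lower without total DC library 1 (15 called, 8 lower) and without library 3 (18 called, 11 lower). For genotype it gave 0 to 1 in lymph node AGF- cells and 0 to 0 in the other genotype comparisons. Of the values of single members, 1780 kept their direction and call, 173 lost the call, 3 gained one and 0 reversed, over 129 results. The ISRE was found in 8 members within 100 bases before the start and in 15 with the last base left off. The cause of these changes was not tested. At 3.93 to 6.58 counts per CPM, the lowest members, such as Isg15, rest on few counts.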
